A study of Mus musculus with 15 samples.

Results

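Ribosomal protein genes encode the protein parts of ribosomes, the particles that translate messenger RNA. Genes of the cytosolic ribosome (Rpl for the large subunit, Rps for the small) and of the ribosome inside mitochondria (Mrpl and Mrps) were followed here in mouse brain RNA. Members were taken by gene symbol alone: a probe counted if its single symbol began with 1 of these 4 stems and a number, or with Rplp, and S6 kinase genes (Rps6k) were left out. The table held 127 such probes for 111 genes. Of these, 57 probes for 53 genes were tested, because each dye orientation gave them 4 or more array values: 29 cytosolic probes (27 genes) and 28 mitochondrial probes (26 genes). They stand among 8058 tested probes, whose single symbols covered 4369 genes.

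The RNA came from brains of mice homozygous for O377, a line with an altered allele of the lens crystallin gene Crybb2, and from wild-type brains. On each of 15 arrays with 2 colours, channel 2 held mutant RNA, labelled as coming from 5 brains, and channel 1 held RNA of a single pool of 4 wild-type brains. The mutant channel was the Cy5 one on 7 arrays, and the dyes were exchanged on 8. The labels give neither age, sex nor strain, and they tie no array to an animal, so a p-value here reflects only how far arrays scatter, possibly for technical reasons, and is too small as a test of 5 animals. The single wild-type pool leaves the spread between control animals unmeasured. Arrays are numbered 1 to 15 in accession order.

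The deposited values are log ratios, taken here as log2. The sources used here do not state whether the numerator is the mutant or the Cy5 channel. Each probe therefore has a pair of values. The dye-switching component is the mean with mutant RNA in Cy5 minus the mean with mutant RNA in Cy3, divided by 2, and the shared component is the mean of those means. Under a Cy5 over Cy3 ratio the dye-switching component is the genotype difference, with positive values higher in the mutant, and the shared component is a dye effect. Under a mutant over wild-type ratio these roles are exchanged. A call below means an adjusted p under 0.05 in limma, with Benjamini-Hochberg adjustment over all tested probes.

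As background, the cytosolic ribosome makes nearly all proteins of a cell. Many of its protein genes share a short pyrimidine tract at the start of their transcripts, through which growth signalling by mTOR controls their translation. The protein parts of the mitochondrial ribosome are encoded by nuclear genes. This ribosome makes a small set of proteins, mostly of the respiratory chain, on which energy-demanding tissue such as brain relies. Cytosolic ribosomal protein transcripts are abundant and have many processed pseudogenes, and array probes may not separate a gene from such copies.

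Nearby promoter sequence is shown for named members of both sets because a motif in it, which the choice of members did not use, was frequent in both. RefSeq promoter windows (GRCm38.p6, 250 bases before to 50 after an annotated start) matched 45 of the 53 genes. The core motif of ETS factors, CCGGAAG, searched on both strands, lay in 10 of 26 cytosolic windows (38.5%) and in 10 of 27 mitochondrial windows (37%). It lay in 8.86% of all 32851 windows and in 11.6% of the 21263 windows of protein-coding genes. A match is a description of letters and not a binding site. Capitals mark the motif or its reverse complement, and lower case the neighbouring bases, 5′ to 3′ on the strand of the gene.
Mrpl48, chr7:100583143-100583179, minus strand: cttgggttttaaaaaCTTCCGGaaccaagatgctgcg
Mrpl52, chr14:54426847-54426883, plus strand: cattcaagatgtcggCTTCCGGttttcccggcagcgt
Mrpl17, chr7:105811303-105811337, minus strand: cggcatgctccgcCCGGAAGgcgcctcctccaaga
Rps6, chr4:86857437-86857473, minus strand: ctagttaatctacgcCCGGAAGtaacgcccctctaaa
Rps2, chr17:24719921-24719957, plus strand: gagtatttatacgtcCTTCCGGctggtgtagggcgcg
Rpl37, chr15:5116575-5116611, plus strand: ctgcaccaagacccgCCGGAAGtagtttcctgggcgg
Mrpl48 has 4 annotated starts in the table, and the motif stood 34 bases before 1 of them and in none of the other windows of the gene.

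Other motifs were counted in the same windows, with no test. The letters GCATGCGC, part of the motif of NRF1, a regulator of nuclear genes for mitochondria, lay in 3 of 27 mitochondrial windows (11.1%) and in 0 of 26 cytosolic ones, against 3.52% of windows of protein-coding genes. AAGATGGC, a motif of YY1, lay in 4 of 27 mitochondrial windows (14.8%), 1 of 26 cytosolic windows (3.85%) and 3.05% of protein-coding windows. A run of at least 8 pyrimidines on the strand of the gene, within 30 bases of the start, was present in 15 of 26 cytosolic windows (57.7%), 10 of 27 mitochondrial windows (37%) and 22.5% of protein-coding windows. Annotated starts can lie away from the true first base, so these counts concern the windows only. Median GC content was 58% for cytosolic, 61.7% for mitochondrial and 56.3% for protein-coding windows.

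Mrpl48, a protein of the large mitochondrial subunit, was the only ribosomal protein gene called in either component. With mutant RNA in Cy5 its log2 ratios were 0.77, 0.60, 0.54, 0.42, 0.22, 1.22 and 0.65 on arrays 1, 2, 5, 6, 9, 10 and 13. With mutant RNA in Cy3 they were -0.44, -0.39, -0.25, -0.23, -0.65, -0.45, -0.20 and -0.57 on arrays 3, 4, 7, 8, 11, 12, 14 and 15. Every value of the first group lay above 0 and every value of the second below 0, so the orientations did not overlap, and the highest value, on array 10, and the lowest of the first group, on array 9, came from the arrays with the widest spread over all tested probes. Orientation means were 0.63 ± 0.31 (SD, n = 7 arrays) and -0.40 ± 0.16 (SD, n = 8 arrays). The dye-switching component was 0.51 ± 0.07 (SE), with a 95% interval from 0.37 to 0.66, a 1.43-fold difference on the linear scale, limma adjusted p = 0.000422. Under a Cy5 over Cy3 ratio this is higher Mrpl48 RNA in the mutant, and under the other reading it is a dye effect. In bulk tissue more RNA per cell and more cells of a type cannot be told apart.

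Mrpl48 was called alone within its set. In the dye-switching component 52 of 8058 tested probes (0.645%) were called, 1 of 28 mitochondrial and 0 of 29 cytosolic probes. Among all tested probes Mrpl48 ranked 17 by p, and its coefficient ranked 14 of the 27 called on the positive side. Its shared component was 0.12 ± 0.07 (SE), 95% interval from -0.03 to 0.26, limma adjusted p = 0.577. The call held in each of 28 alternative fits, with coefficients from 0.47 to 0.55 and adjusted p from 5.03e-05 to 0.0121. Without arrays 9 and 10 the coefficient was 0.50 (adjusted p = 0.000134).

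**Figure D1:**
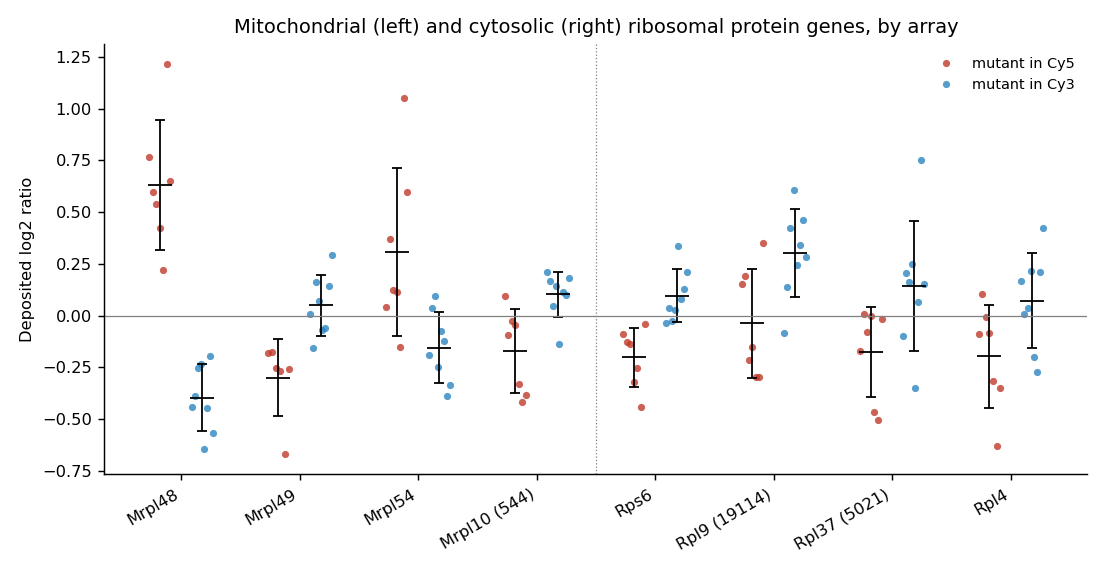
Deposited log2 ratios of the 4 mitochondrial (left) and 4 cytosolic (right) probes with the smallest p in the dye-switching component. Each point is 1 array, red with mutant RNA in Cy5 (7 arrays) and blue with mutant RNA in Cy3 (8 arrays), missing values left out, and bars are mean ± SD; a number in brackets is the probe where a gene has more than 1. Mrpl48 alone lies entirely above 0 in red and entirely below 0 in blue, while Mrpl49 and Rps6 separate by less and the other 5 overlap.

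Other proteins of the large mitochondrial subunit had smaller components that were not called. Mrpl49 ran from -0.67 to -0.175 (median -0.26, 6 arrays) with mutant RNA in Cy5 and from -0.16 to 0.29 (median 0.04, 8 arrays) with mutant RNA in Cy3. These orientations did not overlap either, as in 73 of 8058 tested probes (0.906%), and 3 member probes were among them, those of Mrpl48, Mrpl49 and Rps6. The dye-switching component of Mrpl49 was -0.18 ± 0.06 (SE), unadjusted p = 0.00735 and limma adjusted p = 0.279. Averaged with a second Mrpl49 probe, which had values on 3 arrays, it was -0.0495 (adjusted p = 0.952), and the shared component was then -0.31. Mrpl54, another protein of that subunit, ran from -0.15 to 1.05 (median 0.12) with mutant RNA in Cy5 and from -0.39 to 0.09 (median -0.16) with mutant RNA in Cy3, and these values overlapped. Its component was 0.23 ± 0.08 (SE), on the side of Mrpl48, adjusted p = 0.324. Mrpl52 stood at -0.17 ± 0.07 (adjusted p = 0.429), so members of this subunit lay on both sides.

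The base of the stalk that recruits translation factors was measured through Mrpl10, with 2 probes. The less variable probe ran from -0.42 to 0.10 (median -0.09) with mutant RNA in Cy5 and from -0.14 to 0.21 (median 0.13) with mutant RNA in Cy3, a component of -0.14 ± 0.05 (SE), adjusted p = 0.406. The other probe gave -0.15 ± 0.25 and had the largest residual SD among the mitochondrial members, 1.00, so its interval from -0.67 to 0.38 covers both directions. On 13 arrays with both values, the probes had the same sign on 5.

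Among cytosolic members, Rps6 had the smallest p. Rps6 is the small-subunit protein phosphorylated by S6 kinases downstream of mTOR. Its ratios ran from -0.44 to -0.04 (median -0.14, 7 arrays) with mutant RNA in Cy5 and from -0.03 to 0.34 (median 0.06, 8 arrays) with mutant RNA in Cy3. The groups did not overlap, by a narrow gap, and the component was -0.15 ± 0.05 (SE), a 1.11-fold difference, unadjusted p = 0.00789 and limma adjusted p = 0.284. Its residual SD of 0.13 was the smallest among the cytosolic members. Low scatter between arrays does not show that the probe is specific to Rps6. Over 28 alternative fits its limma adjusted p ran from 0.127 to 0.658. A second Rps6 probe had values on 2 arrays and was not tested by itself.

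Cytosolic large-subunit probes lay on both sides, 9 positive and 9 negative, and none was called. Rpl4, whose protein lines the exit tunnel, ran from -0.63 to 0.10 with mutant RNA in Cy5 and from -0.27 to 0.42 with mutant RNA in Cy3, a component of -0.13 ± 0.07 (adjusted p = 0.542). Rpl37 stood at -0.16 ± 0.07 (adjusted p = 0.512) on 1 probe and at -0.01 ± 0.15 on the other. The probes of Rpl9, a large-subunit protein near the factor-binding site, had components of opposite sign, -0.17 ± 0.07 (adjusted p = 0.410) and 0.12 ± 0.09 (adjusted p = 0.706), and the same sign on 6 of 14 shared arrays. The mean of both Rpl9 probes gave -0.03, so the probe decides the direction for this gene. Mrpl21 likewise had -0.12 ± 0.08 on 1 probe and -0.01 ± 0.08 on the other.

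Most members had intervals inside a modest range. The 95% interval of the dye-switching component stayed within 1.5-fold in either direction (0.58 on the log2 scale) for 27 of 29 cytosolic probes (93.1%), 25 of 28 mitochondrial probes (89.3%) and 89.7% of all tested probes. Larger coefficients with wide intervals were those of Rpl14 (0.37, interval from -0.23 to 0.98, 9 arrays) and Mrps33 (0.40, interval from -0.01 to 0.82, 14 arrays), both singled out after their values were seen. Their lowest values, both with mutant RNA in Cy3, were -2.7341 on array 7 (Rpl14) and -2.7350 on array 11 (Mrps33). Mrps33 was also low on array 7, at -1.12. These low arrays weigh on both coefficients, and no fit without them is given here. Rps9, with the largest residual SD of the cytosolic members (1.07), stood at 0.16 with an interval from -0.50 to 0.83, and on these 9 arrays no direction can be read. At an unadjusted p under 0.05 there were 3 cytosolic probes, all negative, and 5 mitochondrial probes, 2 positive and 3 negative. Those shares of 29 and 28 stand beside 9.57% of all tested probes at the same threshold.

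**Figure D2:**
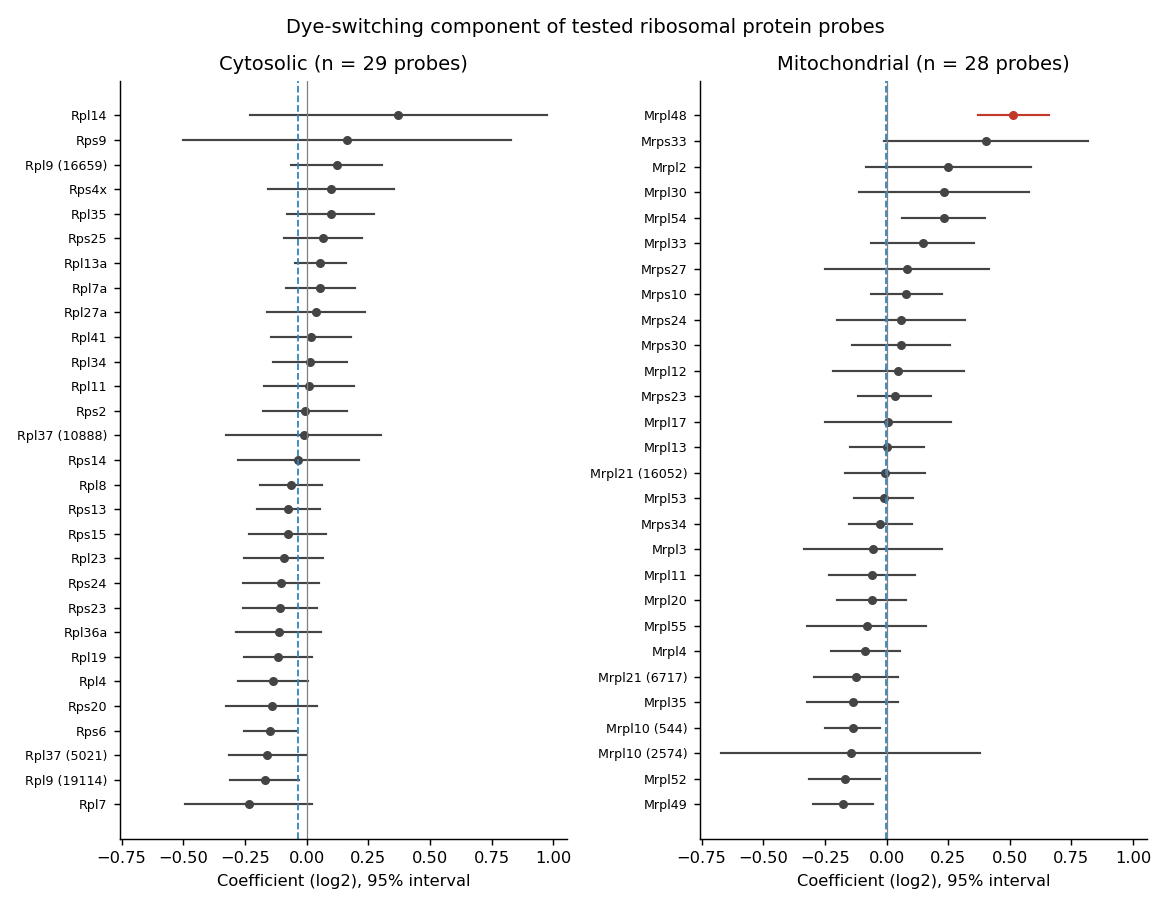
Dye-switching component (log2) of the 29 cytosolic and 28 mitochondrial tested probes, ordered by value. Points are coefficients, lines are 95% intervals, red marks the called Mrpl48 (0.51), the dashed line is the median of the set and the solid line is 0. Apart from Mrpl48, coefficients run from -0.24 to 0.40.

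The cytosolic set was shifted slightly to the negative side and the mitochondrial set was centred near 0. Median dye-switching components were -0.03 over 29 cytosolic probes, -0.0024 over 28 mitochondrial probes and 0.0073 over all tested probes, a difference of -0.03 between the sets. Positive coefficients made up 12 of 29 cytosolic probes (41.4%), 14 of 28 mitochondrial probes (50%) and 52.8% of all tested probes. By subunit, medians were -0.0022 for 18 cytosolic large-subunit probes, -0.07 for 11 cytosolic small-subunit probes, -0.05 for 21 mitochondrial large-subunit probes and 0.06 for 7 mitochondrial small-subunit probes. On the small-subunit side, 3 of 11 cytosolic and 6 of 7 mitochondrial probes were positive. Sets were described by medians and counts alone, so none of these differences was tested.

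Each set was also followed array by array, as the median log2 ratio of its tested probes with a value there. The probes behind a median differ by array, with 25 cytosolic probes on array 3 and 29 on array 6. These medians are another measure than the median coefficient, and their sizes need not match it. The cytosolic median was -0.05 ± 0.06 (SD, n = 7 arrays) for mutant RNA in Cy5, from -0.14 on array 10 to 0.03 on array 13, and 5 of the 7 lay below 0. With mutant RNA in Cy3 it was 0.10 ± 0.07 (SD, n = 8 arrays), from 0.02 on array 3 to 0.21 on array 8, and all 8 lay above 0. The groups overlapped only where array 13 exceeded array 3. Medians of all tested probes stayed between -0.02 and 0.03 on the 15 arrays. The columns were centred near 0 as deposited, so this range is no yardstick for the median of a small set. The mitochondrial median was -0.02 ± 0.05 (SD, n = 7) and 0.0025 ± 0.09 (SD, n = 8), with 3 of 7 and 4 of 8 arrays above 0, and these overlapped. Probes on an array share its RNA and its processing, so they are not replicates of a condition.

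Subtracting the mitochondrial from the cytosolic median on each array gave -0.03 ± 0.03 (SD, n = 7) with mutant RNA in Cy5 and 0.10 ± 0.11 (SD, n = 8) with mutant RNA in Cy3. The difference was below 0 on 7 of 7 arrays of the first kind and above 0 on 7 of 8 of the second, the exception being array 12 at -0.05. Its largest value, 0.32, was on array 8. For single probes, the residual SD had a median of 0.28 in the cytosolic set, 0.31 in the mitochondrial set and 0.34 over all tested probes. Under a Cy5 over Cy3 ratio cytosolic medians would be lower in the mutant, and under the other reading the sign change follows the dye.

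**Figure D3:**
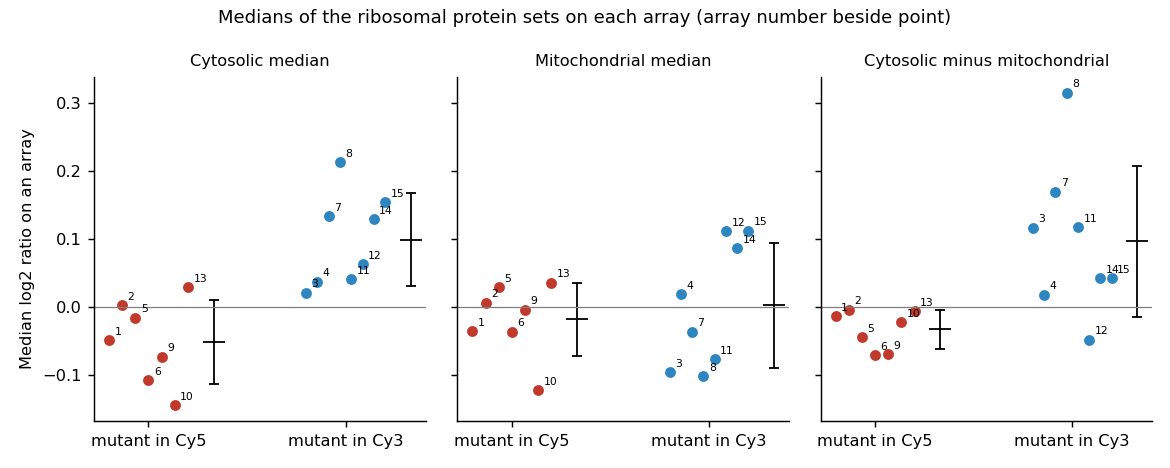
Median log2 ratio of the cytosolic set (left), of the mitochondrial set (middle) and their difference (right) on each of 15 arrays, by the dye of the mutant RNA. Each point is 1 array with its number, and bars are mean ± SD over arrays. Cytosolic medians average -0.05 with mutant RNA in Cy5 and 0.10 with mutant RNA in Cy3, and mitochondrial medians -0.02 and 0.0025.

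In the shared component no ribosomal protein probe was called by limma, 0 of 29 cytosolic and 0 of 28 mitochondrial, as none of 8058 tested probes was (0%). At an unadjusted p under 0.05 there were 6 cytosolic probes, 5 positive and 1 negative, and 1 negative mitochondrial probe, beside 9.49% of all tested probes. With robust regression 107 probes were called over the whole table (1.33%), and again 0 in both sets. Medians were 0.03 for the cytosolic set (17 of 29 positive), -0.04 for the mitochondrial set (12 of 28 positive) and -0.0049 over all tested probes. The cytosolic median was 0.0037 without array 10, and the mitochondrial one 0.0011 without the first 3 arrays.

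Small-subunit members led the cytosolic set in that component. Rps2, which lies near the messenger RNA entry channel, ran from -0.70 to 0.19 (median -0.30) with mutant RNA in Cy5 and from -0.63 to 0.23 (median -0.13) with mutant RNA in Cy3. It was below 0 on 12 of 15 arrays, and its shared component was -0.24 ± 0.08 (SE), unadjusted p = 0.00771 and limma adjusted p = 0.393. Rps14, a protein of the platform of the small subunit, was on the opposite side at 0.32 ± 0.11 (adjusted p = 0.449) with values on 10 arrays, 4 of them with mutant RNA in Cy5. The large-subunit genes Rpl13a and Rpl34 stood at 0.13 ± 0.05 (adjusted p = 0.456, above 0 on 14 of 15 arrays) and 0.17 ± 0.07 (adjusted p = 0.507, above 0 on 13 of 15). Both had 1 array far above the rest with mutant RNA in Cy5: Rpl13a was at 0.53 on array 9 and Rpl34 at 0.84 on array 10.

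Mitochondrial members had a median size of 0.07 in the shared component, against 0.12 for cytosolic members and 0.08 for all tested probes. Mrpl49 stood at -0.13 ± 0.06 (SE, limma adjusted p = 0.516), Mrpl52 at -0.14 ± 0.07 (adjusted p = 0.533) and Mrpl17, a protein of the large subunit, at 0.21 ± 0.12 (adjusted p = 0.577). The value of Mrpl17 was 0.0894 without array 9, where its log2 ratio was 1.40, and 0.34 without the first 3 arrays. With mutant RNA in Cy5, Mrpl49 had 1 low value, -0.67 on array 10, where the next lowest was -0.27. All 28 mitochondrial probes had a 95% interval within 1.5-fold in this component, against 27 of 29 cytosolic probes and 89.9% of all tested probes.

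**Figure D4:**
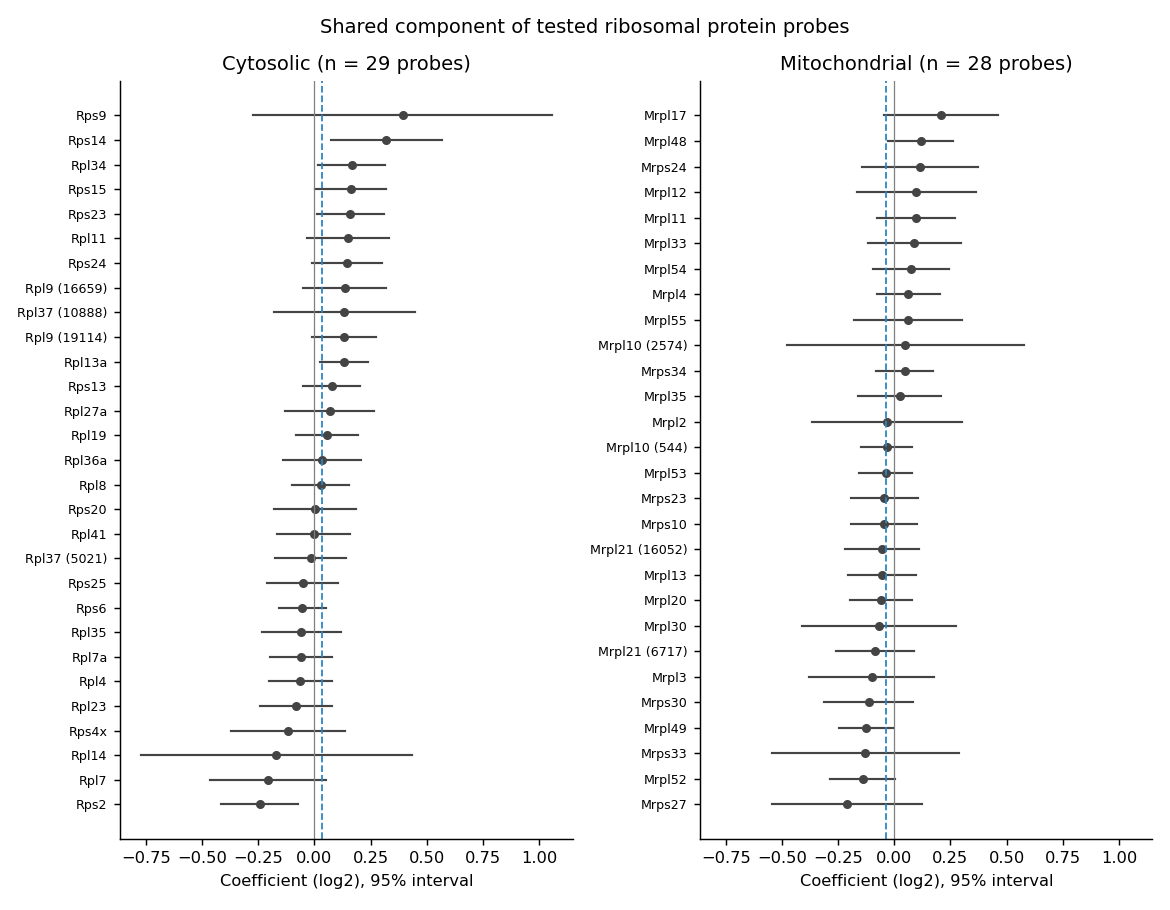
Shared component (log2) of the 29 cytosolic and 28 mitochondrial tested probes, ordered by value. Points are coefficients, lines are 95% intervals, the dashed line is the median of the set (0.03 and -0.04) and the solid line is 0. No probe was called, and coefficients run from -0.24 (Rps2) to 0.39 (Rps9).

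How well the members were measured differed between the sets. Tests covered 29 of 57 cytosolic probes (50.9%), 28 of 70 mitochondrial probes (40%) and 39.9% of all 20205 probes. Values on all 15 arrays were present for 20 of 29 tested cytosolic probes (69%), 14 of 28 mitochondrial probes (50%) and 51.3% of all tested probes. Of the 70 member probes not tested, 32 had no value on any array and 38 had too few. Just inside the minimum stood Rpl7, Rpl14, Rps9 and Rps14 with 4 values in 1 orientation, and just outside it Mrpl47, Mrps26 and Rpl23a, and a further probe of Rpl13a, with 3 in at least 1 orientation. The spread of log2 ratios within an array (interquartile range) was narrower for the cytosolic set than for all tested probes on 12 of 15 arrays and for the mitochondrial set on 9 of 15.

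Genes that build, feed or control ribosomes were examined through lists made for this comparison. Across the 10 lists 95 probes for 89 genes were tested, and 0 were called by limma in either component, with 5 and 8 at an unadjusted p under 0.05 in the dye-switching and shared components. Over all tested probes 0.645% and 0% were called in these components, and 9.57% and 9.49% had an unadjusted p under 0.05. Ribosome biogenesis had 33 tested probes with a median dye-switching component of -0.04, 9 of them positive, and its smallest p belonged to Rrs1, a factor of large-subunit assembly (shared component -0.23 ± 0.09, adjusted p = 0.462). Translation initiation factors had 22 tested probes with a median of 0.0074, led by Eif5a at 0.22 ± 0.06 in the shared component (adjusted p = 0.337). Elongation and termination factors had 5 tested probes (median -0.05), led by Eef1g, a subunit of elongation factor 1, at -0.10 ± 0.06 in the dye-switching component. Growth signalling had 3, led by Maf1, a repressor of RNA polymerase III, at 0.20 ± 0.07 in the shared component.

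On the mitochondrial side, translation and assembly factors had 9 tested probes with a median dye-switching component of -0.02, and all 9 shared components were negative, from -0.57 to -0.05. In the shared component 0 of these 9 had an unadjusted limma p under 0.05, and 48.4% of all tested probes were positive. Dhx30, a helicase of mitochondrial ribosome assembly, had the smallest p of that list, at -0.13 ± 0.06 in the dye-switching component (limma adjusted p = 0.512). Dap3, a mitochondrial small-subunit protein outside the Mrps naming, stood at -0.23 ± 0.22 in the dye-switching component (limma adjusted p = 0.783). In the shared component it was at -0.34 ± 0.22 (limma adjusted p = 0.622). Regulators of mitochondrial gene expression had 8 tested probes, led by the coactivator Ppargc1b at 0.38 ± 0.14 in the shared component (adjusted p = 0.450). Cytosolic aminoacyl-tRNA synthetases, which charge transfer RNA, had 9 tested probes, 7 of them positive in the dye-switching component (median 0.05, Lars at 0.21 ± 0.10), and mitochondrial ones had 4 (median -0.05, Tars2 at -0.11 ± 0.08).

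Markers of brain cell types give log ratios and no levels, so they cannot show which cells were present. Of 12 neuronal markers 7 were tested, and 1 was called: Thy1, a neuronal surface protein, at -0.53 ± 0.11 in the dye-switching component (limma adjusted p = 0.0276), with a list median of 0.02. Of 6 astrocyte probes 0 were called and 1 was positive, that of Glul at 0.46 ± 0.18, with a list median of -0.05. Of 3 oligodendrocyte probes 0 were called and 0 were positive (median -0.04, Mbp at -0.22 ± 0.09). No probe was called among 1 for microglia (C1qb at -0.05), 2 for endothelium (both of Flt1, from -0.14 to 0.04) and 1 for erythrocytes (Alas2 at -0.01), and choroid plexus markers had 0 tested probes. The part of these cell types in the values of Mrpl48 and of the cytosolic set was not tested.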

How the data were processed

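Brain RNA of O377 homozygotes and of a wild-type pool was hybridised to 15 arrays with 2 colours. Values as deposited by the authors are log ratios, 1 for each probe on each array, taken as log2. The largest value in size, 12.33, exceeds the natural log of a 16-bit ratio (11.09). As 1 extreme value this cannot settle the base, and the fold sizes given here rest on that choice. Base, direction, normalization and spot filter are not given in the sources used here. Deposited column medians lay between -0.00618 and 0.0165, and 7843 to 10515 of 20205 probes had a value per array. Scanner intensities were not analysed here, so signal over background is unknown, and the number of arrays limits the precision.

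Probes were named through the platform annotation. Of all probes 11723 had 1 symbol, 806 several and 7676 none. Symbols were updated to GRCm38.p6 by gene identifier (11590) or by symbol or synonym (131), and 2 did not match. All 57 tested member probes matched by identifier. Rpsa, also a cytosolic ribosomal protein gene, has no number and falls outside the symbol rule.

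A linear model with 1 mean per dye orientation was fitted to all 8058 probes with at least 4 values in each orientation, using limma 3.58.1 (R 4.3.3), lmFit and eBayes, and was tested on simulated data. Alternatives changed centring, scaling, the minimum of arrays (2 or 6), weights, the variance model, the regression, extreme values, the dye term, averaging of probes and the arrays used. Member genes, lists and tests were chosen with earlier results of these data known. Named were all called members, the 4 smallest p per set and component, genes with 2 tested probes, the smallest and largest residual SD per set, and per related or marker list its called genes or the 1 with the smallest p. Promoter motifs were picked after the expression values had been seen. Figures used matplotlib 3.10.9.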

Additional observations from a re-analysis of the deposited data

Results flagged for a closer look

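A check for 1 array far from the rest was run on 46 sets, each of 1 dye orientation: those of the 20 probes named by rule, and the medians of both gene sets and their difference. In 6 of them 1 array stood apart. The check flags about 1 in 20 independent sets by chance. These sets share arrays, and some probes were named for their spread, so that rate is no yardstick here. With the mutant in Cy5, the second Mrpl10 probe was at -2.69 on array 2 (next lowest -0.07), Mrpl49 at -0.67 on array 10 (next lowest -0.27), Rpl13a at 0.53 on array 9 (next highest 0.23) and Rpl34 at 0.84 on array 10 (next highest 0.18). With the mutant in Cy3, Rpl13a was at 0.30 on array 8 (next highest 0.13) and the second Rpl37 probe at 1.73 on array 8 (next highest 0.29). None of the 6 belonged to Mrpl48 or to a set median.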

How the results depend on the processing

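Of 28 alternative fits, 13 changed a choice of processing and 15 left out 1 array each. In all 28, Mrpl48 was called in the dye-switching component, and no other member was called in either component. Each set median moved by less than its SD over the 15 arrays (0.10 cytosolic, 0.075 mitochondrial). That SD includes the difference between dye orientations and exceeds the medians themselves, so this bound shows no stability. The count of called probes over the whole table rose with robust regression, from 52 to 204 (2.53%) in the dye-switching component and from 0 to 107 in the shared component, and the cause was not tested. Leaving out 1 array gave 36 to 49 and 0. The block correlation of runs of 4 arrays was near 0 (-0.00257 with the sign turned, 0.0215 as deposited). The dye-switching medians ranged from -0.07 to -0.02 (cytosolic) and from -0.01 to 0.025 (mitochondrial), so the sign of the latter is not settled, and the difference between the sets ranged from -0.08 to -0.02. The shared medians ranged from 0.0037 (without array 10) to 0.0586 (cytosolic) and from -0.05 to 0.0011 (mitochondrial, positive only without the first 3 arrays). Dye-switching components of some uncalled probes changed sign: the second Mrpl10 probe to 0.0799 with robust regression and 0.0704 without the first 3 arrays, the second Mrpl21 probe to 0.0392 without the first 3 arrays, the second Rpl37 probe to 0.0368 and Rps9 to -0.0314 with robust regression, and the second Rpl9 probe to -0.0327 with probes averaged. With 1 array left out they ranged from -0.26 to 0.11 for the second Mrpl10 probe (positive without array 2), from -0.061 to 0.0401 for the second Mrpl21 probe (positive without arrays 1, 4, 8 or 9), from -0.0904 to 0.1006 for the second Rpl37 probe (positive without arrays 2, 8, 9 or 13) and from -0.13 to 0.31 for Rps9 (negative without array 5). Without arrays 9 and 10, further uncalled values moved by over 1.5 times: the dye-switching components of Rpl4 to -0.0795, of the first Rpl37 probe to -0.0977 and of the second Rpl9 probe to 0.21, and the shared components of Mrpl17 to 0.10, Mrpl52 to -0.0656 and Rpl34 to 0.10. Without array 10 alone, the dye-switching component of the first Mrpl21 probe was -0.0655, and the shared components were 0.0685 for Mrpl48 and -0.0907 for Mrpl52.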

Other observations

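Probes with several symbols were not named, but 21 tested ones listed a ribosomal protein gene beside other symbols. None of these 21 was called by limma in either component, with 2 and 1 at an unadjusted p under 0.05. Their dye-switching components ran from -0.20 to 0.12 with a median of 0.01, and the median of their shared components was 0.04.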
